A study of Mus musculus with 6 samples.

Results

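The liver RNA level of *Spp1* (osteopontin), of epithelial keratins and of a set of bile duct markers was compared between mice given an antisense oligonucleotide (ASO) against *Mmab* and mice given a control ASO. The set held 10 genes (*Spp1*, *Krt8*, *Krt18*, *Krt19*, *Krt7*, *Epcam*, *Sox9*, *Cd24a*, *Cldn3* and *Tspan8*), taken by symbol from the 21297 genes of the deposited table, and all 10 had a row. These genes were selected on measured values, because the set was proposed with earlier results of this MMAB ASO against CON ASO contrast in view. Their differences between the groups are therefore given as a description, and no p-value is printed for them. Where members called at a threshold are counted, nothing is read from the count.

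RNA-seq was done on 6 livers of male C57BL/6J mice, 3 of the MMAB ASO group and 3 of the CON ASO group, carrying the replicate numbers 1, 2 and 4 in both. Mice were 8 weeks old at the start, ate chow, and received either the MMAB ASO or the control ASO intraperitoneally at 50 mg/kg once a week, 6 times in all, with livers taken 48 h after the final dose. An overnight fast was the study's rule. The study had 7 MMAB ASO and 6 CON ASO mice, and nothing in the labels says how the sequenced livers were picked. Both groups received an oligonucleotide, and no uninjected group was sequenced. Each library is whole liver, so that fewer cells of a type and less RNA per cell cannot be told apart, and p-values measure the spread between 3 livers a group.

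Levels are given as CPM, the authors' read counts scaled to each library's total. Depth was estimated from the smallest steps between values as 44.7 to 49.3 M reads in the MMAB ASO libraries and 45.6 to 55.4 M reads in the CON ASO libraries, so that 1 read was worth 0.0181 to 0.0224 CPM. *Mmab*, the target of the ASO, had 1.87, 2.69 and 1.80 CPM in the MMAB ASO livers, against 6.31, 5.30 and 6.83 CPM in the CON ASO livers, and fell by 1.55 on the log2 scale (limma, adjusted p = 0.00225). Protein-coding genes took 46.2 to 51.1% of the total in the MMAB ASO libraries and 48.8 to 57.0% in the CON ASO libraries, with CON ASO replicate 1 the highest.

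Osteopontin is a secreted phosphoprotein that binds integrins and CD44. In the liver it is known as a product of bile duct epithelial cells (cholangiocytes), and also of activated stellate cells and macrophages. Keratins form intermediate filaments from a type II and a type I partner: Krt8 pairs with Krt18 in hepatocytes and cholangiocytes alike, and cholangiocytes add Krt7 and Krt19. Epcam is an epithelial adhesion glycoprotein, Cd24a a heavily glycosylated membrane-anchored protein, Cldn3 a tight junction claudin, Tspan8 a tetraspanin, and Sox9 the transcription factor of the biliary lineage.

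The stretches just upstream of 4 members are shown, because *Spp1* and *Cldn3* differed between the groups in opposite directions, and because *Krt8* and *Krt18* lie side by side and encode partners of 1 filament. RefSeq windows (GRCm38.p6) were matched for 7 of the 10 members, as 8 windows. Each run is the 250 bases before the annotated start on the gene's own strand, with motif matches in capitals.
Spp1, chr5:104434861-104435110, plus strand: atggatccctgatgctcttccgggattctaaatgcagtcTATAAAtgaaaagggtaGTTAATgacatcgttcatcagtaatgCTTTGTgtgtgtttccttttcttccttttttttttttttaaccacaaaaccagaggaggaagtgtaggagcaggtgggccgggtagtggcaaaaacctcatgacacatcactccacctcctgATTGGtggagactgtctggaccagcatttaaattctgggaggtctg
Cldn3, chr5:134985964-134986213, plus strand: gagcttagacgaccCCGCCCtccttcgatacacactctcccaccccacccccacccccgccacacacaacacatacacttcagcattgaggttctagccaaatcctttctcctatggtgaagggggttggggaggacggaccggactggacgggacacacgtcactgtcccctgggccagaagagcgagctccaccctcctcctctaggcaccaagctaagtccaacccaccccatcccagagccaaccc
Krt8, chr15:102004343-102004592, minus strand: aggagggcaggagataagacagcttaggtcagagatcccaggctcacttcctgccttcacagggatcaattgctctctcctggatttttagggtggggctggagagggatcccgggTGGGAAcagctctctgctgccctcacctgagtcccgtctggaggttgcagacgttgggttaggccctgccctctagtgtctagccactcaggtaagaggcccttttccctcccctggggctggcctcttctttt
Krt18, chr15:102027966-102028215, plus strand: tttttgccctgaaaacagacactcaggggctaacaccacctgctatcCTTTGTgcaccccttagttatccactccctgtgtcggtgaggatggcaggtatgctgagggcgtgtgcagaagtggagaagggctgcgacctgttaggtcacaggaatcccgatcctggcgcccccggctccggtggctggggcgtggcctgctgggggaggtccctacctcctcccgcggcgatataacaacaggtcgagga
Letters of 8 motifs were searched on both strands, and no match in these runs overlaps another. The *Spp1* window held 4 of them. A TATA box (TATAAA) began 211 bases before the start, in a set of 32851 windows of the same length of which 12.4% held it. An HNF1 motif (GTTAAT), found in 6.43% of all windows, began 194 bases before the start. On the other strand lay a SOX motif (ACAAAG), found in 16.5% of windows, from 168 bases before the start, and a CCAAT box, found in 33.8%, from 46 bases before it. *Cldn3* held a GC box (GGGCGG), found in 32.7% of all windows. *Krt8* held an RBPJ motif (TGGGAA), found in 21.6%, and *Krt18* held the SOX motif. The AP-1 motif (TGANTCA), found in 6.75% of all windows, was in none of the 8 member windows. The TEAD motif (GGAATG), found in 12.6% of all windows, was in none of them either. The share of G and C was 43.6% for *Spp1*, 60.8% for *Cldn3*, 58.0% for *Krt8* and 60.4% for *Krt18*, beside a median of 52.4% over all windows. These matches describe letters only.

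*Spp1* was about 2-fold higher in MMAB ASO livers. *Spp1* (ENSMUSG00000029304.14, chr5:104435118-104441051, plus strand, GRCm38) had 15.3, 19.5 and 20.4 CPM in the MMAB ASO livers, against 10.6, 8.29 and 8.94 CPM in the CON ASO livers (replicates 1, 2 and 4). Every MMAB ASO liver lay above every CON ASO liver, and the closest pair was replicate 1 of each group. The means were 18.4 ± 2.76 CPM in MMAB ASO and 9.28 ± 1.20 CPM in CON ASO livers (SD, n = 3 each), a difference of 0.98 ± 0.16 on the log2 scale (SE), or 1.98-fold. The pooled spread of *Spp1* within groups was 0.206 on the log2 scale, close to the median of 0.195 over all genes tested. Some 456 to 914 reads lay behind each *Spp1* value. An unconfirmed transcript on the same strand, *Gm42793*, overlaps *Spp1* and averaged 0.0217 CPM in MMAB ASO and 0.0390 CPM in CON ASO livers.

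**Figure D1:**
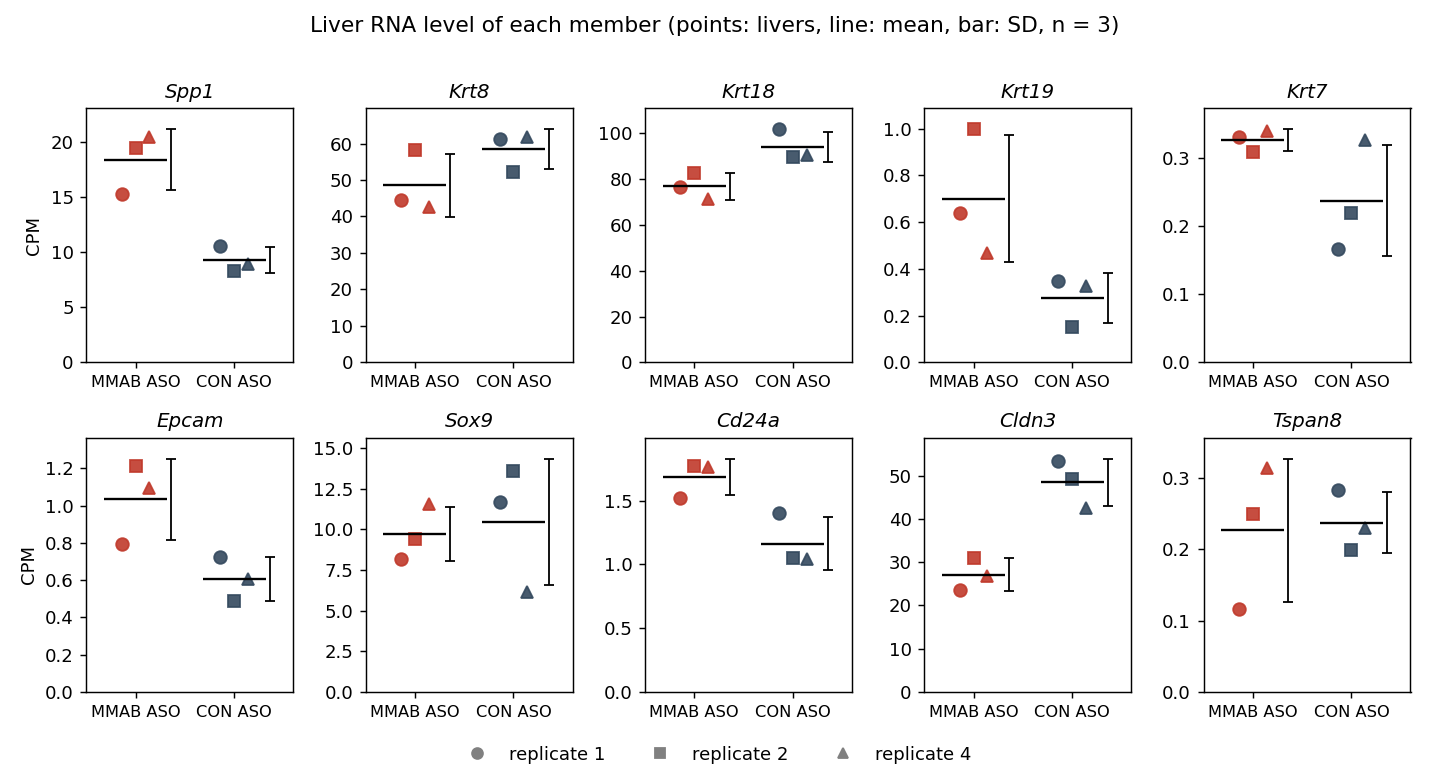
Level of each of the 10 members in every liver, in CPM on an axis from 0, with MMAB ASO livers in red and CON ASO livers in blue; the line is the mean, the bar the SD (n = 3), and the symbol gives the replicate number. *Spp1*, *Krt19*, *Epcam* and *Cd24a* are higher in all MMAB ASO livers, *Cldn3* and *Krt18* are lower in all of them, and the groups of the other 4 overlap.

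*Cldn3* was lower in MMAB ASO livers. *Cldn3* (ENSMUSG00000070473.4, chr5:134986214-134987473, plus strand) had 23.5, 31.1 and 26.8 CPM in the MMAB ASO livers, against 53.4, 49.4 and 42.6 CPM in the CON ASO livers. No MMAB ASO liver reached the lowest CON ASO liver. The means were 27.1 ± 3.79 CPM in MMAB ASO and 48.5 ± 5.44 CPM in CON ASO livers, a log2 difference of -0.84 ± 0.14 (SE), so that the level with the MMAB ASO was 0.559 times that with the control ASO. The ratio of *Spp1* to *Cldn3* within a liver was 0.628 to 0.763 in MMAB ASO and 0.168 to 0.210 in CON ASO livers. The ranges of this ratio had to lie apart, because both genes separated the groups in opposite directions, so the ratio adds no further result. Per kilobase of exon, over all livers, *Cldn3* averaged 30.0 CPM per kb, near *Krt8* (27.3), which hepatocytes express as well. The markers *Sox9* (2.44), *Cd24a* (0.552), *Epcam* (0.374) and *Krt19* (0.263) lay far lower. Which liver cells the *Cldn3* RNA came from was not tested. Its difference is therefore not read as a change of the bile ducts.

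The filament pair of hepatocytes and cholangiocytes averaged slightly lower with the MMAB ASO, at a ratio that differed between the groups by less than its SD. *Krt18* (ENSMUSG00000023043.7, chr15:102028216-102032027, plus strand) had 76.3, 82.7 and 71.2 CPM in the MMAB ASO livers, against 101.6, 89.7 and 90.6 CPM in the CON ASO livers. The groups did not overlap, and the log2 difference was -0.29 ± 0.12 (SE). Its spread within groups, 0.105 on the log2 scale, was tight: only 9.42% of the genes tested had a smaller one. *Krt8* (ENSMUSG00000049382.10, chr15:101996711-102004343, minus strand) had 44.6, 58.3 and 42.7 CPM in the MMAB ASO livers, against 61.4, 52.2 and 61.8 CPM in the CON ASO livers. Here MMAB ASO replicate 2 lay above CON ASO replicate 2, so the groups overlapped, and the log2 difference was -0.28 ± 0.14 (SE). The *Krt8* to *Krt18* ratio was 0.630 ± 0.0658 in MMAB ASO and 0.623 ± 0.0526 in CON ASO livers (SD, n = 3 each).

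The *Krt8* level is uncertain, because its processed pseudogene *Krt8-ps* is 98.6% identical to it over 941 bases, 48.1% of the *Krt8* transcript, and the authors' counting could split reads between them. *Krt8-ps* had 10.7, 13.0 and 10.2 CPM in the MMAB ASO livers, against 14.3, 11.2 and 13.5 CPM in the CON ASO livers. Its ratio to *Krt8* was 0.222 to 0.240 in MMAB ASO and 0.214 to 0.234 in CON ASO livers, so it followed *Krt8* from liver to liver. *Krt18* also resembles a pair of pseudogenes, *Gm5200* (90.2% identical over 1269 bases) and *Gm17847* (86.4% over 1065 bases), which have no row among the genes analysed here.

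The keratins that cholangiocytes add were rare in these livers. *Krt19* (ENSMUSG00000020911.14, chr11:100140810-100148666, minus strand) had 0.637, 0.997 and 0.468 CPM in the MMAB ASO livers, against 0.347, 0.151 and 0.328 CPM in the CON ASO livers. All 3 MMAB ASO livers were above all CON ASO livers, on an estimated 20.9 to 46.0 reads in MMAB ASO and 8.37 to 16.7 reads in CON ASO libraries. Its log2 difference, 1.37 ± 0.45 (SE), was the largest of the 10 and had the largest SE of those whose groups did not overlap, but with a pseudocount of 1 it was 0.41, smaller in size than that of *Spp1* (0.91) and of *Cldn3* (-0.82). On that scale the difference of *Epcam* was 0.34, that of *Cd24a* 0.31 and that of *Krt7* 0.10. *Krt7* (ENSMUSG00000023039.17, chr15:101411043-101430314, plus strand) had 0.330, 0.308 and 0.339 CPM in the MMAB ASO livers, against 0.166, 0.219 and 0.325 CPM in the CON ASO livers. CON ASO replicate 4 lay among the MMAB ASO livers, and the log2 difference was 0.51 ± 0.42 (SE). Relative to *Krt18*, *Krt19* made up a ratio of 0.00658 to 0.0121 in MMAB ASO and 0.00169 to 0.00363 in CON ASO livers.

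*Epcam* and *Cd24a*, the membrane glycoproteins, were both higher in every MMAB ASO liver. *Epcam* (ENSMUSG00000045394.9, chr17:87635979-87651107, plus strand) had 0.792, 1.21 and 1.10 CPM in the MMAB ASO livers, against 0.724, 0.488 and 0.608 CPM in the CON ASO livers. The gap between MMAB ASO replicate 1 and CON ASO replicate 1 was narrow, and the log2 difference was 0.76 ± 0.29 (SE). *Cd24a* (ENSMUSG00000047139.9, chr10:43578284-43584266, plus strand) had 1.52, 1.77 and 1.77 CPM in the MMAB ASO livers, against 1.40, 1.05 and 1.04 CPM in the CON ASO livers. As for *Epcam*, the replicate 1 livers of the groups were closest, and the log2 difference was 0.55 ± 0.25 (SE).

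*Sox9* and *Tspan8* overlapped widely between the groups. *Sox9* (ENSMUSG00000000567.5, chr11:112782224-112787761, plus strand) had 8.20, 9.42 and 11.5 CPM in the MMAB ASO livers, against 11.7, 13.6 and 6.12 CPM in the CON ASO livers. The CON ASO livers held both the highest and the lowest value, and the spread within groups, 0.466 on the log2 scale, was larger than that of 93.5% of the genes tested. The log2 difference was -0.04 ± 0.25 (SE), and it was positive without MMAB ASO replicate 1 (0.07), CON ASO replicate 1 (0.08) or CON ASO replicate 2 (0.18) and when scaled to protein-coding genes (0.05). *Tspan8* (ENSMUSG00000034127.15, chr10:115816832-115849894, plus strand) had 0.117, 0.249 and 0.313 CPM in the MMAB ASO livers, against 0.283, 0.199 and 0.230 CPM in the CON ASO livers. Its log2 difference of -0.17 ± 0.51 (SE) rested on an estimated 5.76 to 14.0 reads a library and became 0.25 without MMAB ASO replicate 1.

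**Figure D2:**
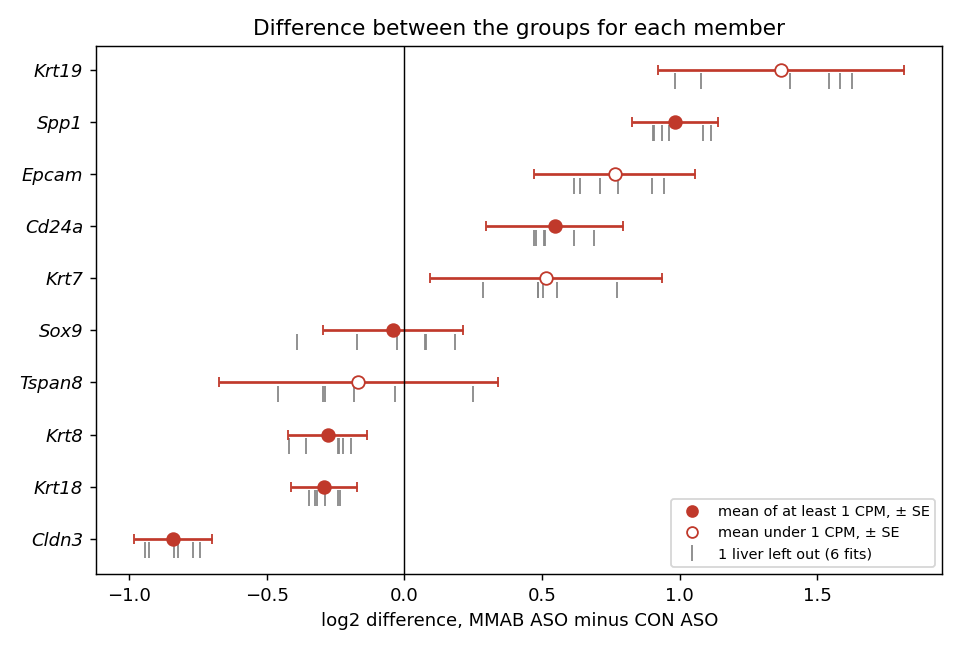
Difference between the groups (MMAB ASO minus CON ASO, log2) for each member, with its SE; filled points are members with a mean of at least 1 CPM, open points those below it, and grey ticks are the 6 fits that each leave out 1 liver. The ticks of *Spp1* run from 0.90 to 1.11 and those of *Cldn3* from -0.94 to -0.74, whereas those of *Sox9* and *Tspan8* lie on both sides of 0.

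A filter at a mean of 1 CPM over the 6 libraries left 11565 genes, among them 6 of the 10 members; *Krt19*, *Krt7*, *Epcam* and *Tspan8* fell below it. At an adjusted p under 0.05 in limma, 1 member (*Spp1*) was called higher in MMAB ASO, beside 1.87% of all genes tested, and 1 (*Cldn3*) lower, beside 2.22%. The study's own thresholds, an unadjusted p of at most 0.05 with a fold change of at least 1.5, called the same 2 members, beside 5.52% of genes higher and 3.55% lower. Without the filter they also called *Krt19* and *Epcam* higher, beside 6.25% of all rows. The groups did not overlap for 4 members that were higher in MMAB ASO livers, beside 13.6% of all rows, and for 2 that were lower, beside 6.98%. Since the contrast itself was in view when the members were chosen, nothing is read from these counts. The median log2 difference was -0.16 over the 6 members tested and 0.24 over all 10, beside 0.03 over all genes tested and 0.08 over all rows.

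Per kilobase of exon, over all 6 livers, the level fell in the order *Krt18* (59.4 CPM per kb), *Cldn3* (30.0), *Krt8* (27.3), *Spp1* (8.40), *Sox9* (2.44), *Cd24a* (0.552), *Epcam* (0.374), *Krt19* (0.263), *Tspan8* (0.136) and *Krt7* (0.0399). The order of *Cldn3* and *Krt8* differed between groups when *Krt8* was counted apart from *Krt8-ps*. Because reads could be split between *Krt8* and *Krt8-ps*, this order is uncertain. *Cldn3* had 18.7 to 24.7 CPM per kb in the MMAB ASO livers, overlapping *Krt8* at 21.8 to 29.8, whereas in the CON ASO livers it had 33.9 to 42.4, above *Krt8* at 26.7 to 31.6. *Epcam* and *Krt19* overlapped in the MMAB ASO livers only, and *Krt19* and *Tspan8* in the CON ASO livers only. All other neighbours in this order were apart in both groups.

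**Figure D3:**
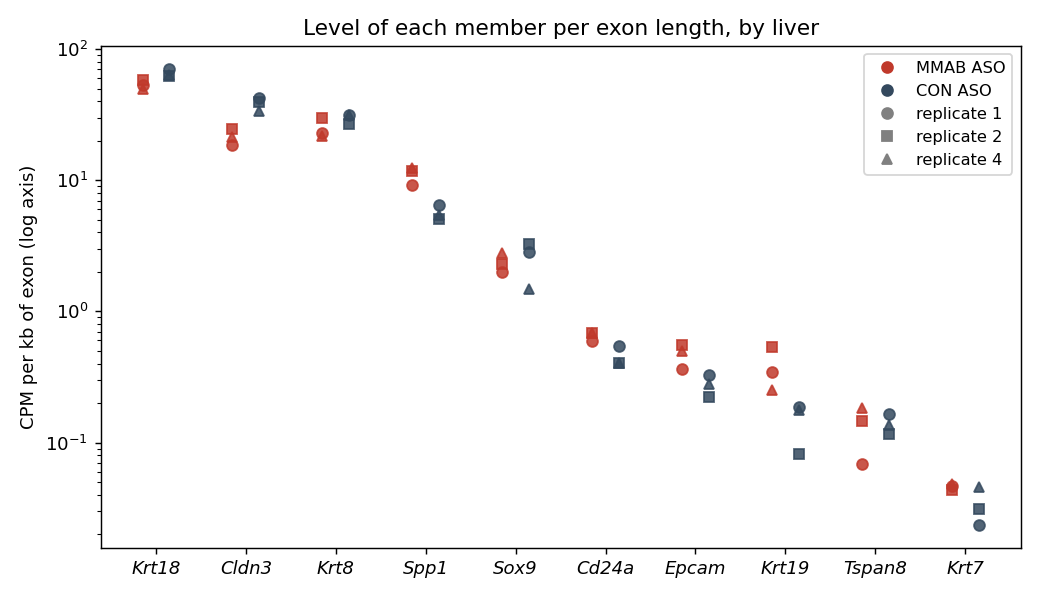
Level per kilobase of exon for each member (CPM per kb, log axis) in each liver, with MMAB ASO livers in red and CON ASO livers in blue and the symbol giving the replicate number. The members spread from 59.4 CPM per kb for *Krt18* to 0.0399 for *Krt7*, and *Cldn3* lies above *Krt8*, counted apart from *Krt8-ps*, in the CON ASO livers alone.

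Across the 6 libraries, the genes whose log2 values followed *Spp1* most closely were *Gm15675* (Pearson r = 0.995), *Stard8* (0.995), *Anks3* (0.994), *Arap3* (0.991) and *Nras* (0.990), as a description over 6 points that share 2 groups of livers. *Nras*, which encodes a small GTPase, had 20.0, 20.4 and 21.1 CPM in the MMAB ASO livers, against 17.6, 16.3 and 16.7 CPM in the CON ASO livers, a log2 difference of 0.28 where *Spp1* had 0.98. Pearson r takes no account of the size of a difference. Among the members, the same measure was 0.96 for *Cd24a*, 0.96 for *Epcam*, 0.83 for *Krt19*, 0.54 for *Krt7*, 0.13 for *Tspan8*, 0.04 for *Sox9*, -0.52 for *Krt8*, -0.76 for *Krt18* and -0.82 for *Cldn3*.

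The lists below were, like the members, chosen with earlier results of these data known, so their p-values and counts are a description. Over all genes tested, 1.87% were called higher and 2.22% lower at an adjusted p under 0.05 in limma. Other genes known from cholangiocytes were split. Of 21 listed, 18 had a row and 9 were tested, of which 2 rose and 2 fell in MMAB ASO livers, with a median log2 difference of -0.01 beside 0.03 over all genes tested. *Slc10a2*, the apical sodium-dependent bile acid transporter, had 1.12, 2.86 and 1.07 CPM in the MMAB ASO livers, against 5.75, 7.68 and 6.36 CPM in the CON ASO livers, and fell by 2.12 on the log2 scale (limma, adjusted p = 0.00483). Its groups lay far apart. *Bicc1*, an RNA-binding protein of ciliated epithelia, averaged 4.20 ± 0.518 CPM in MMAB ASO and 2.28 ± 0.288 CPM in CON ASO livers (adjusted p = 0.0272 in limma). *Dcdc2a*, a doublecortin-domain protein of cilia, averaged 2.05 ± 0.373 CPM in MMAB ASO and 0.944 ± 0.165 CPM in CON ASO livers (adjusted p = 0.0372 in limma). Some of these calls were lost when 1 liver was left out. *Bicc1* lost its call without a filter and without MMAB ASO replicate 2 or 4 or CON ASO replicate 1 or 4, with adjusted p up to 0.13 over all alternatives, and *Dcdc2a* without a filter, with quantile normalization and when any 1 MMAB ASO liver or CON ASO replicate 4 was left out, with adjusted p up to 0.126. *Cdh1*, the epithelial cadherin that periportal hepatocytes carry as well, had 15.6, 15.1 and 17.6 CPM in the MMAB ASO livers, against 32.6, 43.4 and 20.0 CPM in the CON ASO livers (adjusted p = 0.0421 in limma). Its CON ASO livers ranged widely, and the call was lost when any 1 MMAB ASO liver or CON ASO replicate 1 or 2 was left out. It was also lost without a filter, without limma's trend, and with median-ratio, quantile or protein-coding scaling (adjusted p up to 0.117 over all alternatives).

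Osteopontin's receptors comprise integrins and CD44, and 9 of 10 listed genes were tested. Of these, 2 rose and none fell in limma (1 was lower at an unadjusted p under 0.05), with a median log2 difference of 0.04. How many of all genes tested had an unadjusted p under 0.05 is not given here. Nothing is therefore read from such unadjusted counts in this or any other list. *Itga9*, the integrin alpha subunit that binds a cryptic site in osteopontin, had 5.70, 5.54 and 6.10 CPM in the MMAB ASO livers, against 3.20, 2.69 and 2.57 CPM in the CON ASO livers (log2 difference 1.04, limma, adjusted p = 0.00645). The groups did not overlap. *Itga8*, an alpha subunit of mesenchymal cells, averaged 3.34 ± 0.995 CPM in MMAB ASO and 1.40 ± 0.407 CPM in CON ASO livers (adjusted p = 0.0332 in limma), a call lost without a filter, without limma's trend, with quantile normalization and without MMAB ASO replicate 2 or 4 or CON ASO replicate 4, with adjusted p up to 0.138. *Itgb1*, the common beta subunit and the most abundant receptor gene named here, averaged 113.8 ± 7.02 CPM in MMAB ASO and 110.6 ± 11.7 CPM in CON ASO livers (adjusted p = 0.902 in limma). The other glycoprotein genes of osteopontin's family, 4 in the list, had no row and were not analysed here.

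Among 8 tested partners of keratin filaments in desmosomes and plakin linkers, with vimentin added, 1 rose and 1 fell. *Vim*, the intermediate filament of mesenchymal cells, averaged 12.3 ± 1.79 CPM in MMAB ASO and 5.77 ± 1.02 CPM in CON ASO livers (log2 difference 1.10, limma, adjusted p = 0.00579). *Ppl* (periplakin), which links keratin filaments to the membrane, averaged 3.03 ± 0.415 CPM in MMAB ASO and 5.07 ± 0.777 CPM in CON ASO livers (adjusted p = 0.0483 in limma), and lost its call when any 1 of the 6 livers was left out, without a filter, without limma's trend and with protein-coding scaling, with adjusted p up to 0.198. *Dsg2* (desmoglein), a desmosomal cadherin, averaged 73.7 ± 5.93 CPM in MMAB ASO and 75.2 ± 4.79 CPM in CON ASO livers (adjusted p = 0.935 in limma). Of the keratin family as a whole, 11 genes had a row and only *Krt8*, *Krt18* and *Krt8-ps* passed the filter, none of them called in limma. The 1 that was lower at an unadjusted p under 0.05 was *Krt18*, a member, and nothing is read from it.

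Of 10 tested tight junction and adhesion genes, none rose and 2 fell (*Cldn2* and *Cdh1*) in limma, where 4 were lower and none higher at an unadjusted p under 0.05, with a median log2 difference of -0.30. *Cldn2*, which forms a paracellular cation channel, had 27.4, 23.5 and 15.6 CPM in the MMAB ASO livers, against 54.9, 39.9 and 48.2 CPM in the CON ASO livers (log2 difference -1.13, limma, adjusted p = 0.00923). Its groups did not overlap, and the call was lost only without CON ASO replicate 4 (adjusted p = 0.0615). *Cldn1*, the claudin of highest CPM here, averaged 53.7 ± 1.69 CPM in MMAB ASO and 63.0 ± 15.7 CPM in CON ASO livers (adjusted p = 0.604 in limma). Per kilobase of exon it lay below *Cldn3*, at 12.1 against 30.0 CPM per kb over all 6 livers. Over the claudin family, 14 genes had a row and 6 were tested, of which *Cldn5* was higher and *Cldn2* lower. *Cldn3* was lower too, but as a member it is given as a description only. *Cldn5*, the claudin of endothelial cells, had 3.31, 3.31 and 3.11 CPM in the MMAB ASO livers, against 1.80, 1.45 and 1.65 CPM in the CON ASO livers (log2 difference 1.00, limma, adjusted p = 0.0172). The call was lost without MMAB ASO replicate 1, MMAB ASO replicate 4 or CON ASO replicate 4 (adjusted p up to 0.0683). The name was added after its values were seen.

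Notch signals to Sox9 in the biliary lineage, and 5 of its 14 listed genes were tested, none of them called in limma, nor under 0.05 unadjusted. *Notch2*, the receptor tied to bile duct formation, averaged 25 ± 3.87 CPM in MMAB ASO and 25.6 ± 3.62 CPM in CON ASO livers (adjusted p = 0.94 in limma). *Notch1* averaged 7.58 ± 1.06 CPM in MMAB ASO and 8.72 ± 1.22 CPM in CON ASO livers, and *Rbpj*, the pathway's DNA-binding factor, 5.42 ± 0.121 CPM in MMAB ASO and 5.86 ± 0.673 CPM in CON ASO livers. Of the 8 listed partners of Epcam and Cd24a, 3 were tested and none was called in limma, nor under 0.05 unadjusted. They were *Spint2*, a serine protease inhibitor, with 36.7 ± 1.65 CPM in MMAB ASO and 31.9 ± 4.23 CPM in CON ASO livers, the protease gene *Prss8* with 1.27 ± 0.15 CPM in MMAB ASO and 1.51 ± 0.753 CPM in CON ASO livers, and *Selp* with 1.08 ± 0.189 CPM in MMAB ASO and 1.07 ± 0.267 CPM in CON ASO livers.

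**Figure D4:**
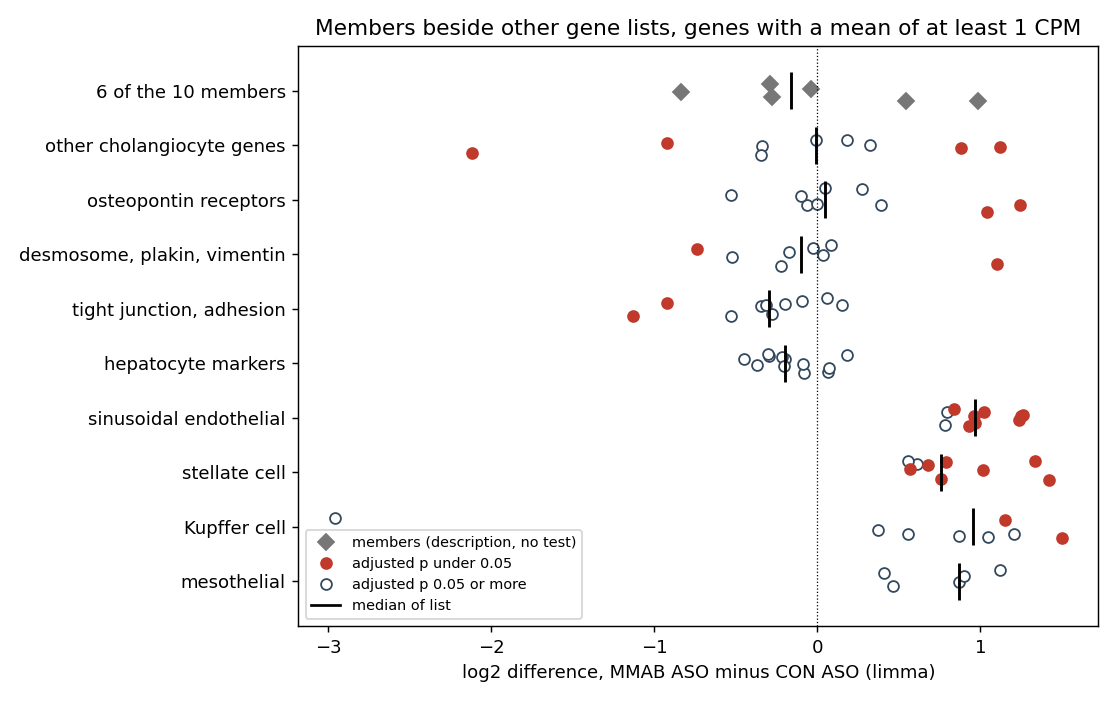
Difference between the groups (MMAB ASO minus CON ASO, log2, limma) for the 6 members with a mean of at least 1 CPM (grey diamonds) and for the genes of 9 other lists (red, adjusted p under 0.05; open, 0.05 or more), with each list's median as a bar. The members spread on both sides of 0. The medians of sinusoidal endothelial (0.97), stellate (0.76), Kupffer cell (0.96) and mesothelial markers (0.87) lie above it. With 1 liver left out these medians ran over 0.83 to 1.15, 0.61 to 0.92, 0.61 to 1.36 and 0.34 to 1.00, in that order.

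Most of the sinusoidal endothelial and stellate cell markers tested were called higher in MMAB ASO livers. All 10 sinusoidal endothelial markers were tested and 8 rose, beside 1.87% of all genes tested. Their summed level was 96.6 to 110.3 CPM in MMAB ASO and 41.5 to 63.1 CPM in CON ASO livers. *Ehd3* averaged 25.5 ± 1.84 CPM in MMAB ASO and 10.7 ± 1.81 CPM in CON ASO livers, *Clec4g* 15.6 ± 1.62 CPM in MMAB ASO and 6.60 ± 1.22 CPM in CON ASO livers, and *Stab1* 8.39 ± 0.655 CPM in MMAB ASO and 4.28 ± 0.216 CPM in CON ASO livers. Their adjusted p in limma was 0.00122, 0.00211 and 0.00492 in that order. Of 9 tested stellate cell markers 7 rose, with a summed level of all 10 of 147.5 to 172.4 CPM in MMAB ASO and 83.8 to 113.8 CPM in CON ASO livers. Stellate cells, which store retinoids, are a known source of osteopontin once activated. *Pdgfrb* averaged 3.93 ± 0.606 CPM in MMAB ASO and 1.47 ± 0.227 CPM in CON ASO livers, *Ecm1* 36.8 ± 5.46 CPM in MMAB ASO and 18.2 ± 2.76 CPM in CON ASO livers, and *Hgf* 1.5 ± 0.286 CPM in MMAB ASO and 0.594 ± 0.107 CPM in CON ASO livers (adjusted p of 0.00461, 0.00469 and 0.0332 in limma). Leaving out 1 liver reduced the 8 endothelial calls to 4 (CON ASO replicate 4) or 5 (MMAB ASO replicate 2, and likewise replicate 4). It reduced the 7 stellate calls to 2 (MMAB ASO replicate 4, and likewise CON ASO replicate 4), 3 (MMAB ASO replicate 1) or 4 (MMAB ASO replicate 2), and *Hgf*, whose call was also lost with quantile normalization, had an adjusted p of up to 0.133.

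Macrophages are another known source of osteopontin. Of 8 tested Kupffer cell markers 2 rose, with a median log2 difference of 0.96 and a summed level of 49.9 to 86.9 CPM in MMAB ASO and 22.3 to 83.6 CPM in CON ASO livers. CON ASO replicate 1 stood apart at the top of its group, with 15.7 CPM of *Marco*, a scavenger receptor of Kupffer cells that was at 0.134 to 0.426 CPM in the MMAB ASO livers and at 0.805 and 0.813 CPM in the other CON ASO livers. *Clec4f* averaged 15.1 ± 3.50 CPM in MMAB ASO and 7.26 ± 3.77 CPM in CON ASO livers, *Vsig4* 6.15 ± 1.81 CPM in MMAB ASO and 2.47 ± 1.76 CPM in CON ASO livers, and *Cd5l*, which was not called, 24.8 ± 9.05 CPM in MMAB ASO and 14.3 ± 12.1 CPM in CON ASO livers. The calls of *Clec4f* (adjusted p = 0.0448 in limma) and *Vsig4* (0.0491) reached an adjusted p of up to 0.197 and 0.205 in the alternatives, and both were lost without a filter, without limma's trend and with median-ratio scaling or quantile normalization, where no Kupffer cell marker was called. With CON ASO replicate 2 left out *Marco* fell as well. With CON ASO replicate 1 left out 5 Kupffer cell markers rose, with MMAB ASO replicate 2 left out 1 rose, and none did when MMAB ASO replicate 1, MMAB ASO replicate 4 or CON ASO replicate 4 was missing. The *Spp1* difference without CON ASO replicate 1 was 1.08 on the log2 scale. Of 6 tested markers of lipid-associated macrophages, 1 rose in limma, and 2 were higher and none lower at an unadjusted p under 0.05. Their median log2 difference was 0.50, and 3 of the 6 had a positive difference. The marker called, *Cd63*, averaged 2.08 ± 0.22 CPM in MMAB ASO and 0.998 ± 0.324 CPM in CON ASO livers (adjusted p = 0.0487 in limma). Its call was lost when any 1 MMAB ASO liver or CON ASO replicate 2 or 4 was left out. It was also lost without a filter, and with median-ratio scaling or quantile normalization (adjusted p up to 0.19). *Cd9* averaged 5.60 ± 1.52 CPM in MMAB ASO and 7.42 ± 1.42 CPM in CON ASO livers, and *Ctsd* 156.0 ± 12.5 CPM in MMAB ASO and 158.3 ± 14.6 CPM in CON ASO livers, neither called.

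None of 12 hepatocyte markers was called in limma (unadjusted, 2 had a p under 0.05, both lower), and their median log2 difference was -0.20. Their summed level was 57006 to 70958 CPM in MMAB ASO and 64563 to 74860 CPM in CON ASO livers. *Alb*, the albumin gene, averaged 35549 ± 7203 CPM in MMAB ASO and 40323 ± 4493 CPM in CON ASO livers, *Apoa1* 5791 ± 736 CPM in MMAB ASO and 7096 ± 684 CPM in CON ASO livers, and *Cyp2e1* 5770.1 ± 212 CPM in MMAB ASO and 5760.1 ± 2020.1 CPM in CON ASO livers. The surface of the liver carries mesothelial cells, which also express keratins. None of 5 tested mesothelial markers was called in limma, where 2 were higher at an unadjusted p under 0.05, with a median log2 difference of 0.87 and a summed level of all 8 of 8.56 to 12.0 CPM in MMAB ASO and 4.64 to 7.16 CPM in CON ASO livers. This depended on the setting: 1 of the 5 was called higher with a pseudocount of 1, array weights or MMAB ASO replicate 2 left out (*Cav1*, whose adjusted p of 0.0559 ran from 0.0136 to 0.200 in the alternatives) and with protein-coding scaling or without limma's trend (*Upk3b*, a uroplakin named after its values were seen). *Cav1* averaged 2.95 ± 0.657 CPM in MMAB ASO and 1.39 ± 0.467 CPM in CON ASO livers, *Gpm6a* 1.68 ± 0.497 CPM in MMAB ASO and 1.22 ± 0.106 CPM in CON ASO livers, and *Msln* 1.41 ± 0.377 CPM in MMAB ASO and 1.05 ± 0.399 CPM in CON ASO livers.

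Few genes of tissues that could have come with the liver sample were measured. Of 10 gallbladder and gut epithelial markers 4 had a row and 2 were tested, neither called in limma (1 was higher at an unadjusted p under 0.05), with a summed level of 15.4 to 18.1 CPM in MMAB ASO and 9.25 to 14.9 CPM in CON ASO livers. *Lgals4*, an epithelial galectin, averaged 12.9 ± 1.20 CPM in MMAB ASO and 8.59 ± 2.06 CPM in CON ASO livers (adjusted p = 0.0876 in limma), and *Muc6* 3.18 ± 0.31 CPM in MMAB ASO and 3.21 ± 0.785 CPM in CON ASO livers. Of 8 pancreatic markers 2 had a row, and *Cela1* averaged 1.94 ± 0.207 CPM in MMAB ASO and 2.55 ± 0.735 CPM in CON ASO livers, not called. Of 8 cell cycle genes only *Mki67* was tested, at 1.26 ± 0.365 CPM in MMAB ASO and 1.22 ± 0.481 CPM in CON ASO livers, not called. The part of these cell types in the values of *Spp1*, the keratins and the biliary markers was not tested.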

How the data were processed

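Liver RNA was depleted of ribosomal RNA and sequenced by the authors. Per the methods, STAR alignment and quantification by the E/M algorithm were run within PartekFlow 8.0.19.0405. Counts were scaled to the total, given 0.0001 and log2-transformed, so the deposited values were taken as log2 of CPM. The labels and the methods name different sequencers. Of the values up to 20 reads, 58.8 to 59.9% came out as whole reads within 0.01, so no count test was run.

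Genes averaging 1 CPM or more across all 6 libraries were fitted with limma 3.58.1 (R 4.3.3, variance trend, no covariates, Benjamini-Hochberg adjustment at 0.05), which was tested on simulated data. Members below the filter were described from a fit of all 21297 rows. Positions follow the deposited table (GRCm38); 93.7% of 20485 matched symbols had their GENCODE M21 coordinates. Exon lengths are from GENCODE M21. The strand used in counting is not given in the sources used here.

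The members and lists were chosen with earlier results of these data known. Named beside the members were, from each list, up to 3 genes with the smallest adjusted p under 0.05, filled up to 3 with the tested genes of highest mean; the 3 highest keratins and claudins; and the 5 tested genes closest to *Spp1*. Alternatives changed the pseudocount, filter, scaling, variance prior, weights, replicate block or left out 1 liver.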

Additional observations from a re-analysis of the deposited data

How the results depend on the processing

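The number of genes called at an adjusted p under 0.05 was 473 (216 higher and 257 lower in MMAB ASO, 45.7% higher). It was 255 without a filter, 268 when a mean of 5 CPM was required and 768 with array weights, and 157 to 536 with 1 liver left out (309 without MMAB ASO replicate 1, 157 without MMAB ASO replicate 4, 162 without CON ASO replicate 4). Scaling to protein-coding genes moved the median difference of all genes tested to 0.12 and called 416 higher and 217 lower (65.7% higher), and median-ratio scaling called 161 higher and 293 lower (35.5% higher). At the study's thresholds 1049 genes were called, against 608 with a pseudocount of 1, 1947 without a filter and 409 when a mean of 5 CPM was required.

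Deviations of same-numbered livers from their group means correlated at -0.02 (1), 0.05 (2) and -0.01 (4). These values show no shared effect of the replicate number, but with so few livers they cannot exclude a pairing. With the replicate block 430 genes were called, 2 stellate cell markers rose (7 without it), 4 Kupffer cell markers rose and 1 (*Marco*) fell (2 and 0 without it), and 1 mesothelial marker rose. The calls of *Dcdc2a*, *Itga8*, *Ppl*, *Hgf* and *Cd63* were lost with the block, and *Cd5l* and *Cav1* were called.

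Over the 16 alternatives the log2 difference of *Spp1* ranged over 0.90 to 1.11 and that of *Cldn3* over -0.94 to -0.74. Of 45 other named genes, 20 were called: 9 in every alternative and 11 not in all, none with a change of sign. Of the 25 not called, 5 gained a call in some: *Cd5l* (array weights, the replicate block, without CON ASO replicate 1), *Cav1* (a pseudocount of 1, array weights, the replicate block, without MMAB ASO replicate 2), *Upk3b* (protein-coding scaling, no trend), *Marco*, lower (the replicate block, without CON ASO replicate 2) and *Lgals4* (without CON ASO replicate 2). Small differences changed sign as follows, each with its range when 1 liver was left out: *Sox9* (0.047 with protein-coding scaling; -0.39 to 0.18), *Tspan8* (-0.46 to 0.25), *Itgb1* (-0.0066 to 0.13), *Dsg2* (0.043 with quantile normalization and 0.059 with protein-coding scaling; -0.077 to 0.036), *Notch2* (0.053 with protein-coding scaling; -0.15 to 0.071), *Prss8* (-0.43 to 0.24), *Selp* (-0.14 with quantile normalization; -0.16 to 0.21), *Cyp2e1* (-0.22 to 0.31), *Ctsd* (0.10 with quantile normalization and 0.069 with protein-coding scaling; -0.086 to 0.047), *Muc6* (-0.0098 with median-ratio scaling, -0.087 with quantile normalization and -0.12 with array weights; -0.14 to 0.20) and *Mki67* (-0.058 with quantile normalization; -0.30 to 0.35).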
